A study of Mus musculus with 24 samples.

Results

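Ceacam1, its relatives Ceacam2 and Ceacam10, Havcr2 and the phosphatase genes Ptpn6 and Ptpn11 were followed across 24 RNA sequencing libraries of mouse choroid, which here means the choroidal vessel layer dissected together with the retinal pigment epithelium (RPE) and the sclera. These 6 of the 56065 genes with a deposited value were chosen by name as the gene removed in this study, its nearest paralogs, a receptor that binds its product, and the phosphatases that bind its tail. Each library was described by genotype, wild type or Ceacam1-/-, and by laser treatment, no or yes. Of the libraries without laser, 4 were wild type (libraries 21, 22, 26 and 27) and 4 were Ceacam1-/- (23, 24, 25 and 28). Of those with laser, 9 were wild type (1, 2, 3, 11, 12, 13, 16, 17 and 19) and 7 were Ceacam1-/- (4, 5, 6, 7, 14, 15 and 18). All mice shared a C57BL/6J background, and the wild type mice were littermates of mice with a homozygous deletion of exons 1 and 2 of Ceacam1 in every cell. Mice of both sexes were used, at 6 to 8 weeks of age unless stated otherwise, and the sex behind each library is not given by the labels. The laser treatment, 6 spots per eye of 150 mW, 200 µm and 100 ms, is a model of choroidal neovascularization, the growth of new vessels from the choroid. The interval between laser and dissection is not given in the sources used here. The study counts its choroids without laser as mice, while nothing in the labels says which libraries with laser came from separate mice, so p-values that use them measure the spread between libraries, which may be partly technical.

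CEACAM1 is an adhesion receptor of the immunoglobulin superfamily on epithelial, endothelial and immune cells. Its long form carries a cytoplasmic tail with tyrosine-based inhibitory motifs (ITIMs). Once Src family kinases have phosphorylated them, these motifs bind the phosphatases SHP-1 (gene Ptpn6) and SHP-2 (gene Ptpn11), which have SH2 domains. The short form lacks the motifs. CEACAM2 is the closest mouse paralog, while CEACAM10 has immunoglobulin domains but no tail. TIM-3, the product of Havcr2, is an inhibitory receptor of T cells and myeloid cells to which CEACAM1 binds. SHP-1 is found mainly in blood cells, and SHP-2 in nearly all cells, where it carries growth factor signals to Ras.

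In GRCm39 the first 3 genes lie close together on chromosome 7. Ceacam1 (ENSMUSG00000074272, protein-coding) spans chr7:25161128-25177257 on the reverse strand, and Ceacam2 (ENSMUSG00000054385) chr7:25215467-25239380 on the same strand. Ceacam10 (ENSMUSG00000054169) spans chr7:24476598-24484082 on the forward strand. Havcr2 (ENSMUSG00000020399) is at chr11:46345673-46374149, Ptpn6 (ENSMUSG00000004266) at chr6:124697670-124715840 and Ptpn11 (ENSMUSG00000043733) at chr5:121268596-121329496. The coding sequences around the tail tyrosines are shown because they tie the phosphatases to the receptor and because they are the same in both paralogs. Capitals mark the tyrosine codon. In Ceacam1 the first run is at chr7:25163299-25163316 and the second at chr7:25163218-25163235, both in the last exon. In Ceacam2 they are at chr7:25217584-25217601 and chr7:25217503-25217520.
ITIM codons 1, Ceacam1 and Ceacam2: gtcgcaTACactgtcctg
ITIM codons 2, Ceacam1 and Ceacam2: acagttTATtcagaagta
Within the last 75 codons, both runs were coding in 3 of 22 Ceacam1 coding transcripts of the annotation, in 2 of 3 of Ceacam2 and in 0 of 3 of Ceacam10. In the canonical Ceacam1 transcript of 8 exons the reading frame stops before these codons. The deposited values are summed over all transcripts of a gene, so long and short forms cannot be told apart in them.

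The deleted exons and the exons that remain differ in how well they set Ceacam1 apart from Ceacam2. The first 90 bases of exon 2 (deleted, at chr7:25176039-25176128 in Ceacam1, chr7:25238269-25238358 in Ceacam2 and chr7:24477551-24477640 in Ceacam10) and of exon 3 (retained, at chr7:25174140-25174229 and chr7:25230091-25230180) are shown for this contrast. In the lines of Ceacam1 and Ceacam2 capitals mark the bases that differ between these genes, and in the line of Ceacam10 those that differ from Ceacam1.
Ceacam1 exon 2: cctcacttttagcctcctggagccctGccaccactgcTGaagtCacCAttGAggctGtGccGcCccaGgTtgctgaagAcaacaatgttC
Ceacam2 exon 2: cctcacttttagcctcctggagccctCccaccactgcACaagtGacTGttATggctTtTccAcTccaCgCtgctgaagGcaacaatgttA
Ceacam10 exon 2: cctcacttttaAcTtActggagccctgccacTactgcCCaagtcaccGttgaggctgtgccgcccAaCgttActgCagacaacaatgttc
Ceacam1 exon 3: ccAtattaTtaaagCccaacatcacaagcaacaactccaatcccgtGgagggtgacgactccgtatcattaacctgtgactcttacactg
Ceacam2 exon 3: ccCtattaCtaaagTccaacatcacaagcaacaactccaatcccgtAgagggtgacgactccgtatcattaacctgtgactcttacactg
Ceacam1 and Ceacam2 differed at 16 of the 90 bases in exon 2 and at 4 of 90 in exon 3. Over whole exons they were 77.5% identical in exon 2, 97.9% in exon 3, 100% in exon 4 and 86.6% in exon 5. Of the 31-base words in the canonical Ceacam1 transcript, those of exons 1 and 2 were shared with Ceacam2 for 5.92%, and those of exons 3 to 8 for 65.8%. Over all transcripts, 30% of Ceacam1's words occurred in Ceacam2 and 55.1% of Ceacam2's in Ceacam1. Reads from the shared stretches can be assigned to either gene, so the values of Ceacam2 are uncertain, above all beside a more abundant Ceacam1. The deleted exons hold 722 of the 3885 bases of the canonical transcript (18.6%). A gene value therefore mixes deleted with retained exons and does not by itself check the deletion. The study checked the deletion separately, by Ceacam1 mRNA in retina and choroid and by staining of the protein in eyes.

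The values are normalized counts, which the authors made from estimated reads by correcting for library size and transcript length. They summed to between 23979741 and 27093809 in the wild type libraries without laser, 23819561 and 35094410 in the Ceacam1-/- libraries without laser, 23717571 and 28563124 in the wild type libraries with laser, and 23704346 and 25940731 in the Ceacam1-/- libraries with laser. For tests 1 was added before the log2 transformation, genes with a mean of at least 10 were fitted with limma, and p was adjusted over all of them by the Benjamini-Hochberg method (threshold 0.05). Ceacam10 stayed below this mean in every comparison, and Ceacam2 in that of the genotypes with laser. In bulk tissue a lower value from fewer cells of a type and one from less RNA per cell cannot be told apart.

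Libraries that stood apart in cell type markers are named before the results. Markers of the dissected layers were present in all of them, since all 12 endothelial genes (most abundant Plvap), all 10 of the RPE (most abundant Ttr) and all 7 of melanocytes (most abundant Dct) were above 0. The 14 genes of surface epithelium, the covering of cornea and conjunctiva (most abundant Krt15), summed to over 100000 normalized counts in 5 libraries. These were wild type libraries 22 (376000), 27 (103700) and 19 (231700) and Ceacam1-/- libraries 28 (584800) and 15 (539000), against 862 to 23210 in the other 19. The 10 photoreceptor genes had a mean log2 value above 14 in wild type library 21 and Ceacam1-/- libraries 23, 14, 15 and 18. In libraries 14, 15 and 18 the sum of the 12 myeloid genes (most abundant C1qb, a complement subunit of macrophages) was 18010, 15540 and 9912, against 38260 to 49790 in the other 4 Ceacam1-/- libraries with laser. These 3 libraries were also lower in other cell types of the tissue. Their summed RPE genes were 74980, 57190 and 44610 (180500 to 320700 in the other 4), their endothelial genes 11520, 22540 and 15690 (37690 to 54520), and their melanocyte genes 10920, 29270 and 10090 (94240 to 187500). Both limits were set after the values were seen.

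Ceacam1 was lower in Ceacam1-/- than in wild type choroids with and without laser, but it did not pass the test over all genes in either comparison. Without laser, its normalized counts were 958, 5027, 1242 and 4596 in wild type libraries 21, 22, 26 and 27. In Ceacam1-/- libraries 23, 24, 25 and 28 they were 405, 505, 508 and 1171. The groups overlapped through library 28 alone, which lay above wild type library 21. The log2 fold change was -1.95 ± 0.60 (SE, limma, adjusted p = 0.999; two-sided exact permutation p = 0.0571, where 0.0286 is the smallest possible for 4 against 4). Among 20057 genes tested in this comparison 0 passed (0%) and 307 had an unadjusted p under 0.05 (1.53%). The study, with DESeq2 and sex as a covariate, did report differentially expressed genes between these genotypes without laser. The 0 here comes from a different model without sex and does not mean that no gene differs. With laser, Ceacam1 ranged from 774 to 8367 in the 9 wild type libraries (median 996) and from 67.8 to 905 in the 7 Ceacam1-/- libraries (median 335). The highest Ceacam1-/- value, of library 15, lay above the lowest wild type value, of library 13, and the other 6 Ceacam1-/- libraries lay below all wild type libraries. The log2 fold change was -2.17 ± 0.52 (SE, limma, adjusted p = 0.104; two-sided exact permutation p = 0.000175, smallest possible 8.74e-05). In this comparison 4 of 19757 genes passed (0.0202%), and 4479 had an unadjusted p under 0.05 by limma. With array weights, a limma option that lowers the weight of variable libraries, Ceacam1 passed (-1.70, adjusted p = 0.0365), as did 1.5% of all genes tested.

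**Figure D1:**
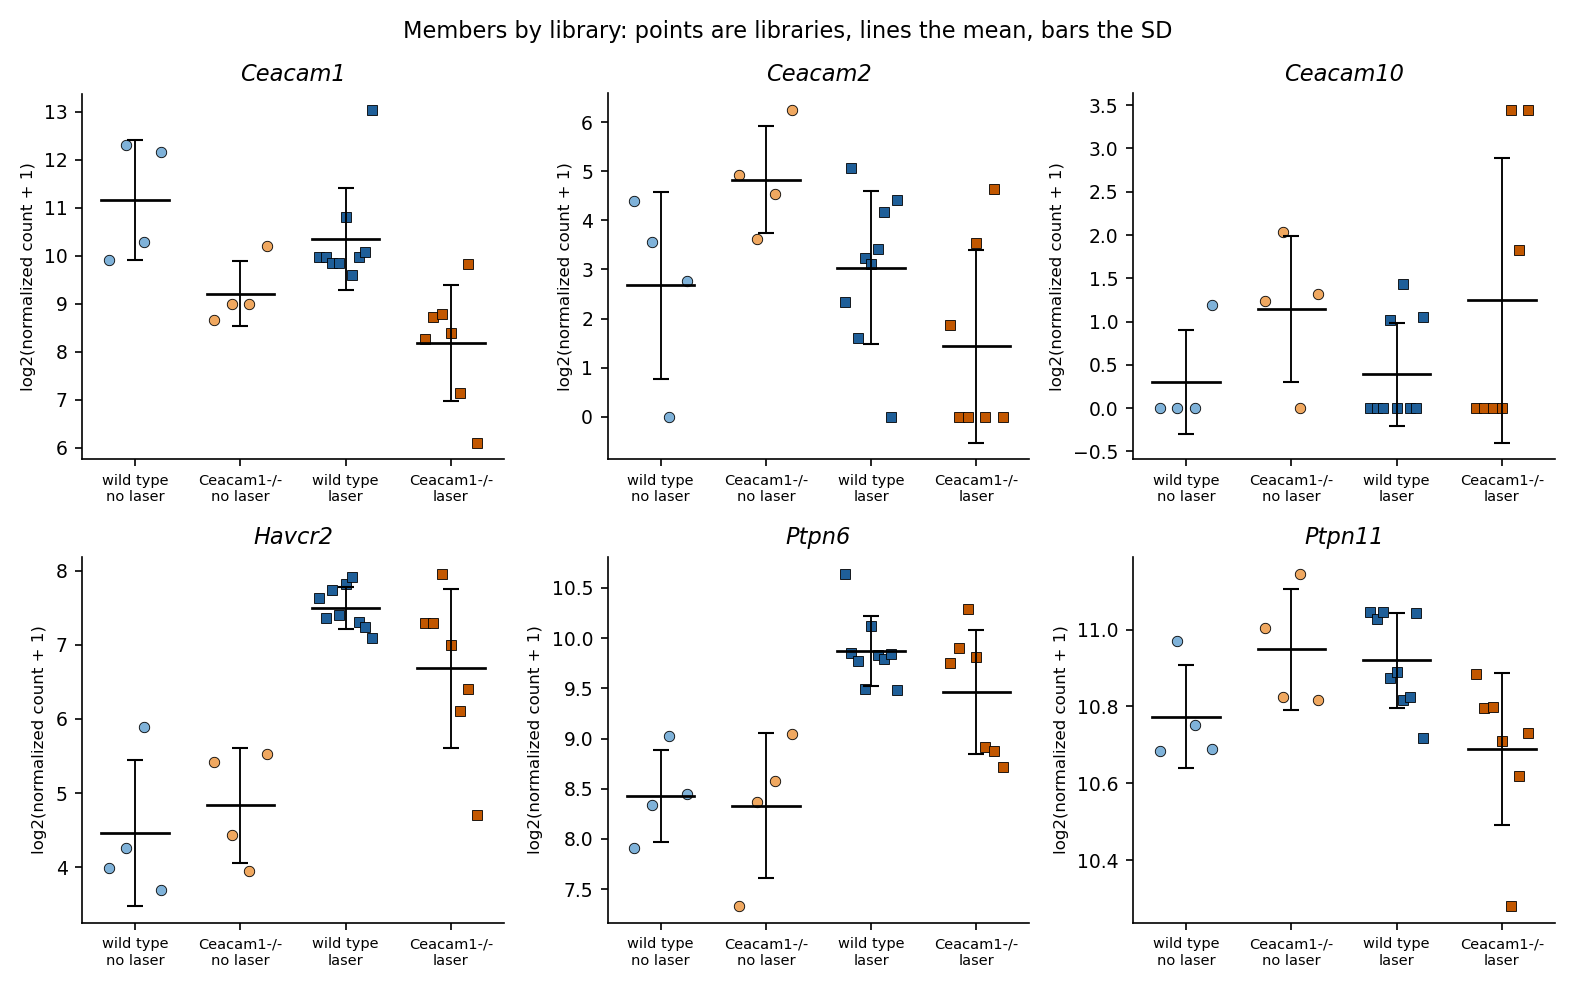
Each point is a library, grouped by genotype and laser on the x axis, with log2 of the normalized count plus 1 on the y axis of each gene's panel; lines are group means and bars the SD (n = 4, 4, 9 and 7). Ceacam1 was lower in most Ceacam1-/- libraries, and the 9 wild type laser libraries lay above all 4 without laser for Havcr2 and Ptpn6.

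The level of Ceacam1 among libraries of 1 genotype went with the surface epithelium genes. In wild type, Ceacam1 was at 4596, 5027 and 8367 normalized counts where the epithelium sum was over 100000 and at 774 to 1776 in the other 10 libraries. Among Ceacam1-/- libraries it was at 905 and 1171 in the 2 libraries with high sums and at 67.8 to 508 in the other 9. The genotypes thus overlapped only between Ceacam1-/- libraries with high sums and wild type libraries without, and among the 19 remaining libraries they did not overlap. Ceacam1 was 1 of 19950 genes (0.00501%) with all Ceacam1-/- values below all wild type values in those 19 libraries. This set leaves out the 2 Ceacam1-/- libraries that alone made the genotypes overlap, by a limit set after the values were seen. The count is therefore a description and not a test. Without the 5 libraries, the log2 fold change between genotypes was -1.21 without laser (3 Ceacam1-/- against 2 wild type libraries, adjusted p = 1.00 by limma) and -2.11 with laser (6 against 8, adjusted p = 0.0600 by limma). In the 9 wild type laser libraries, log2 Ceacam1 and the mean log2 of the epithelium list had a Pearson r of 0.876 (exact permutation p = 0.00777, 0.0777 adjusted over 10 lists) and a Spearman rho of 0.55 (exact permutation p = 0.133, 0.425 adjusted). Without libraries 19 and 12, the farthest from the median of that list, r was -0.127 over 7 libraries, so the relation rests on them. None of the other 9 lists had an exact permutation p under 0.05 for Pearson's r.

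**Figure D2:**
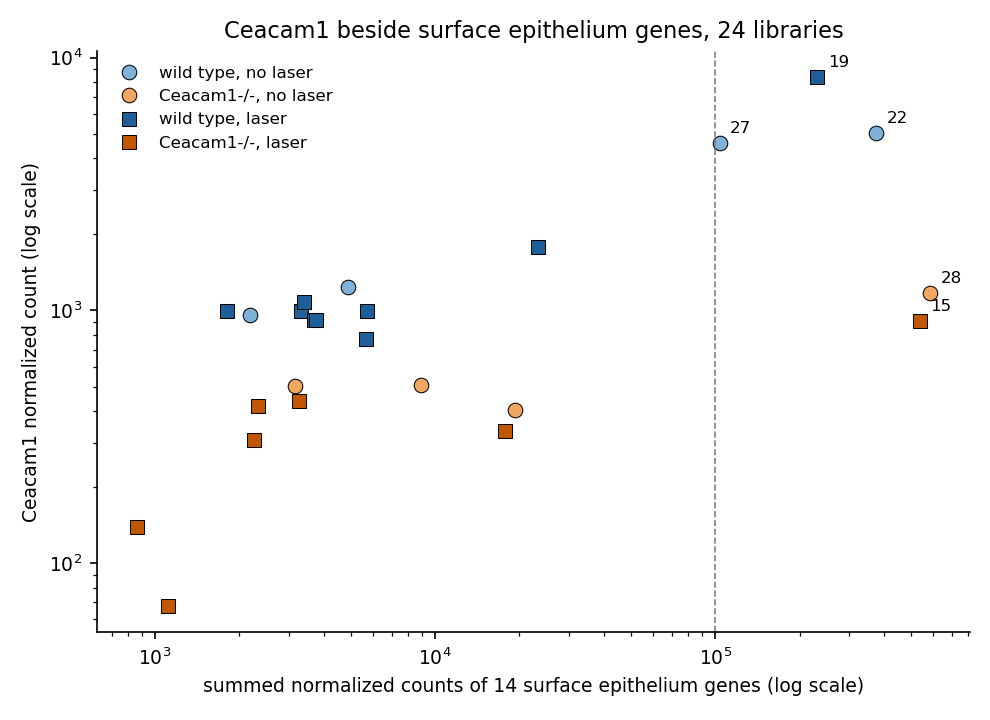
Each of the 24 points is a library, with the summed normalized counts of 14 surface epithelium genes on the x axis and the normalized count of Ceacam1 on the y axis, both on log scales; the dashed line marks a sum of 100000 and the numbers name the 5 libraries beyond it. Left of the line the wild type libraries (774 to 1776) lie above the Ceacam1-/- libraries (67.8 to 508).

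Laser did not change Ceacam1 beyond the spread between libraries. In wild type the log2 fold change of laser against no laser was -0.82 ± 0.61 (SE, limma, adjusted p = 0.463), and in Ceacam1-/- mice -1.03 ± 0.64 (SE, limma, adjusted p = 0.380). The wild type value moved with the libraries high in surface epithelium genes, 2 of 4 without laser and 1 of 9 with laser, and was -0.09 without them (adjusted p = 0.950 by limma). With array weights it was -1.54 and passed (adjusted p = 0.00884 by limma), as did 6505 of 19950 genes (32.6%). The Ceacam1-/- value was -0.38 with a covariate of surface epithelium genes, -0.63 with array weights and -0.69 without library 18, and it passed under none of them. The interaction of laser and genotype was -0.21 ± 0.89 (SE, limma, adjusted p = 0.934). The lowest values in Ceacam1-/- mice, 67.8 and 140, were those of laser libraries 18 and 14, which had high photoreceptor values.

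Ceacam2 stayed near the bottom of the range and Ceacam10 below it. Ceacam2 had 19.9, 10.8, 0 and 5.79 normalized counts in wild type libraries 21, 22, 26 and 27. In Ceacam1-/- libraries 23, 24, 25 and 28 it had 29.4, 11.3, 22.1 and 74.9. The groups overlapped, with 3 of the 4 Ceacam1-/- values above all wild type values and the highest in library 28, which was also high in surface epithelium genes. The log2 fold change was 2.15 ± 1.01 (SE, limma, adjusted p = 0.999; two-sided exact permutation p = 0.0571). It was 2.17 without libraries 22, 27 and 28, 1.26 without library 26, 1.48 with array weights and 1.14 with a pseudocount of 10, and it passed under none of them. With laser the direction was the other way, from 0 to 32.5 in the 9 wild type libraries (median 8.39) and from 0 to 23.9 in the 7 Ceacam1-/- libraries (median 0, listed at 0 in 4; two-sided exact permutation p = 0.0884). All 7 Ceacam1-/- laser values lay within the wild type range.

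Within Ceacam1-/- mice, Ceacam2 was above 0 in all 4 libraries without laser and in 3 of 7 with laser. The log2 fold change of laser was -3.40 ± 1.02 (SE, limma, adjusted p = 0.0624; two-sided exact permutation p = 0.0273), and 6 of 7 laser libraries lay below all 4 others. It is on the scale of log2 of the value plus 1, and with a pseudocount of 10 it was -1.51 (adjusted p = 0.0475 by limma). In wild type mice it was 0.36 ± 0.98 (SE, limma, adjusted p = 0.855), and the interaction was -3.76 ± 1.42 (SE, limma, adjusted p = 0.640). As a share of the summed Ceacam1 and Ceacam2 values, Ceacam2 was at most 2.04% in wild type libraries without laser, 3.16% in wild type libraries with laser and 3.08% in Ceacam1-/- libraries with laser. In the Ceacam1-/- libraries without laser it was between 2.19% and 6.77%. These shares depend on how reads of the shared exons were divided.

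Ceacam10, a secreted member of the family, was above 0 in 10 of 24 libraries and never above 9.87 normalized counts. In wild type it was above 0 in 1 of 4 libraries without laser (1.29) and 3 of 9 with laser (at most 1.69). In Ceacam1-/- libraries it was above 0 in 3 of 4 without laser (at most 3.09) and 3 of 7 with laser. The highest values, 9.87 and 9.87, were in Ceacam1-/- laser libraries 14 and 18, both high in photoreceptor genes. Without the filter on the mean, its log2 fold change between genotypes was 0.85 without laser (adjusted p = 0.958 by limma) and 0.86 with laser (adjusted p = 0.459 by limma). A fold change at this level rests on a few reads.

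Havcr2 was higher after laser in both genotypes. Without laser it had 14.8, 18.2, 58.6 and 11.98 normalized counts in wild type libraries 21, 22, 26 and 27. It had 41.9, 20.7, 14.4 and 45.3 in Ceacam1-/- libraries 23, 24, 25 and 28. The genotypes overlapped along their whole range, and library 26 stood apart from the other wild type libraries. With laser, Havcr2 ranged from 135 to 240 in wild type (median 168) and from 24.97 to 248 in Ceacam1-/- mice (median 127). All 9 wild type laser libraries lay above all 4 without laser, as they did for 4.5% of genes tested. In Ceacam1-/- mice 6 of 7 laser libraries did, and library 18 (24.97) lay among those without laser.

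In wild type the log2 fold change of Havcr2 with laser was 3.04 ± 0.46 (SE, limma, adjusted p = 0.000218; two-sided exact permutation p = 0.0014, the smallest possible). Of 19950 genes tested 844 passed and were higher (4.23%), and 5.28% passed in either direction. In Ceacam1-/- mice the change was 1.85 ± 0.48 (SE, limma, adjusted p = 0.0336; two-sided exact permutation p = 0.0182), beside 413 genes higher (2.07%) and 3.72% that passed in either direction. That call was lost with no filter on the mean (adjusted p = 0.0573 by limma), with quantile normalization (0.0587) and with a fit of the Ceacam1-/- libraries alone (0.236). It was also lost without any 1 of libraries 4, 5, 6, 7, 24 and 25, the adjusted p rising to at most 0.203. The interaction was -1.19 ± 0.67 (SE, limma, adjusted p = 0.640), beside 0 genes that passed (0%) and 6.22% with an unadjusted p under 0.05. The genotypes differed by 0.37 ± 0.64 without laser (SE, limma, adjusted p = 0.999) and by -0.82 ± 0.35 with laser (SE, limma, adjusted p = 0.193; two-sided exact permutation p = 0.0249). Between genotypes with laser, 4479 of 19757 genes had an unadjusted p under 0.05 by limma.

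The 3 lowest Ceacam1-/- laser values of Havcr2, 24.97, 68.2 and 83.3 in libraries 18, 14 and 15, were in the libraries with high photoreceptor genes and low myeloid, RPE, endothelial and melanocyte genes. Without the 5 libraries with high photoreceptor values, Havcr2 differed between genotypes by -0.11 with laser (adjusted p = 0.946 by limma). Its change with laser was then 2.75 in Ceacam1-/- mice (adjusted p = 0.000355 by limma) and 2.88 in wild type (adjusted p = 6.94e-05 by limma). The interaction without them was -0.13 (adjusted p = 0.976 by limma). These fits leave out the 3 lowest Ceacam1-/- laser values and no wild type laser library, by a limit set after the values were seen. They are therefore a description and not a test.

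Ptpn6, which encodes SHP-1, was also higher after laser in both genotypes. Without laser it had 240, 324, 519 and 348 normalized counts in wild type libraries 21, 22, 26 and 27. It had 160, 330, 380 and 526.3 in Ceacam1-/- libraries 23, 24, 25 and 28. The genotypes overlapped, and both the lowest and the highest value were from Ceacam1-/- mice. With laser, Ptpn6 ranged from 716 to 1597 in wild type (median 908) and from 419 to 1255 in Ceacam1-/- mice (median 858). All 9 wild type laser libraries lay above all 4 without laser (4.5% of genes tested did so), and the highest was library 1. Of the 7 Ceacam1-/- laser libraries, 4 lay above all 4 without laser, and libraries 14, 15 and 18, with 482, 467 and 419, lay among them.

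The log2 fold change of Ptpn6 with laser was 1.44 ± 0.30 in wild type (SE, limma, adjusted p = 0.00543; two-sided exact permutation p = 0.0014, the smallest possible). In Ceacam1-/- mice it was 1.14 ± 0.32 (SE, limma, adjusted p = 0.0451; two-sided exact permutation p = 0.0182). Of all genes tested 4.23% passed and were higher in wild type and 2.07% in Ceacam1-/- mice. The wild type call was lost without the libraries high in surface epithelium genes, with a change of 1.45 (adjusted p = 0.0651 by limma). The Ceacam1-/- call was lost with no filter, quantile normalization, no variance trend, a covariate of Y-linked genes, a covariate of surface epithelium genes, or a fit of the Ceacam1-/- libraries alone (adjusted p from 0.0511 to 0.254 by limma). It was also lost without any 1 of libraries 4, 5, 6, 7, 23, 24 and 25 (adjusted p at most 0.124 by limma). Without the libraries high in photoreceptor genes the change was 1.28 in Ceacam1-/- mice (adjusted p = 0.00178 by limma) and 1.27 in wild type (adjusted p = 0.000918 by limma). This set leaves out libraries 14, 15 and 18, which had the lowest Ceacam1-/- laser values of Ptpn6. The limit was set after the values were seen and left out no wild type laser library. These fits are therefore a description and not a test. The genotypes differed by -0.10 ± 0.39 without laser (SE, limma, adjusted p = 0.999) and -0.40 ± 0.23 with laser (SE, limma, adjusted p = 0.291), and the interaction was -0.30 ± 0.44 (SE, limma, adjusted p = 0.797).

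Myeloid genes, like Havcr2 and Ptpn6, were higher after laser, and other cell type lists differed in level as well. Of the myeloid genes 11 of 12 passed and were higher in wild type and 6 of 12 in Ceacam1-/- mice (beside 4.23% and 2.07% of all genes tested), with medians of 2.09 and 1.41 on the log2 scale beside -0.10 and 0.02 over all genes tested. The mean log2 value of the list rose from 9.15 to 11.2 in wild type and from 9.36 to 10.7 in Ceacam1-/- mice, differences of 2.04 and 1.32. Havcr2 changed by 3.04 and 1.85 and Ptpn6 by 1.44 and 1.14 between the same groups. The summed value of the list ranged from 7159 to 14550 in the 8 libraries without laser, from 28160 to 58530 in the wild type laser libraries and from 9912 to 49790 in the Ceacam1-/- laser libraries. Of 10 neutrophil genes (most abundant Csf3r), 6 were abundant enough to test, and 3 were higher in wild type and 2 in Ceacam1-/- mice after laser. Of the lymphocyte genes 9 of 10 could be tested, and Trbc2, a constant segment of the T cell receptor and the most abundant of the list, was higher in both. None of the other 8 passed in either genotype. In wild type 3 of the 9 had a negative value (median log2 fold change 0.17), while in Ceacam1-/- mice all 9 were positive (median 0.60). None of these genes was at 0 throughout. No gene of the other 7 cell type lists passed with laser in either genotype. The mean log2 value of 10 extraocular muscle genes (most abundant Acta1) differed by -1.15 in wild type and -2.14 in Ceacam1-/- mice, where 9 of 10 had an unadjusted p under 0.05 by limma. Of all 19950 genes tested for laser in Ceacam1-/- mice, 3997 had an unadjusted p under 0.05 by limma. The RPE list differed by -1.24 in Ceacam1-/- mice (7 of 10 with an unadjusted p under 0.05 by limma) and by 0.02 in wild type, where its median fold change was -0.04. The photoreceptor list differed by -1.43 in wild type and 2.36 in Ceacam1-/- mice, the surface epithelium list by -0.85 and -2.46, and the mast cell list by -0.50 and -1.24. The part of any of these cells in the change of Havcr2 and Ptpn6 was not tested.

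**Figure D3:**
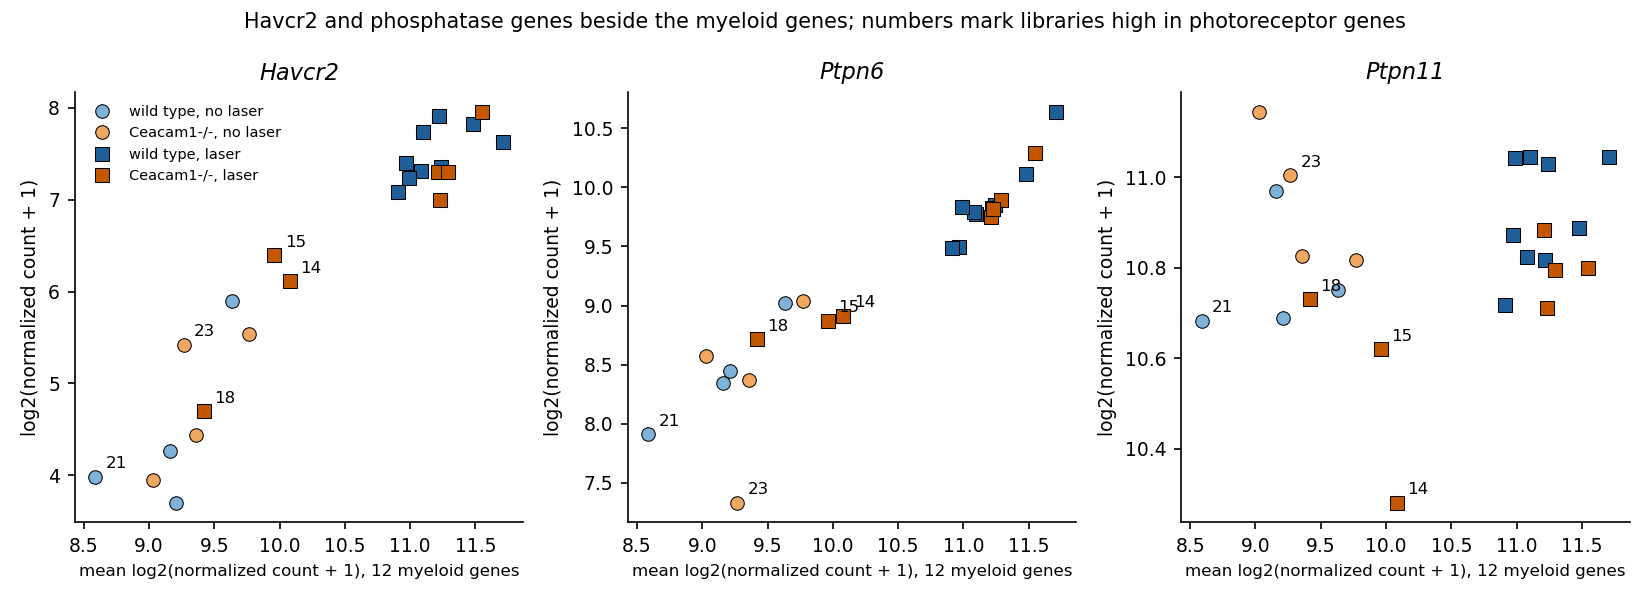
Each point is a library, with the mean log2 value of 12 myeloid genes on the x axis and log2 of the normalized count plus 1 of Havcr2, Ptpn6 or Ptpn11 on the y axis; numbers mark the 5 libraries high in photoreceptor genes. Ceacam1-/- laser libraries 14, 15 and 18 lie apart from the other laser libraries for Havcr2 and Ptpn6, whereas Ptpn11 lies between 1243 and 2264 normalized counts in all.

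Ptpn11, which encodes SHP-2, had the smallest SD relative to its mean of the 6 genes in each group. Without laser it had 1643, 2005, 1723 and 1650 normalized counts in wild type libraries 21, 22, 26 and 27. It had 2054, 1814, 2264 and 1804 in Ceacam1-/- libraries 23, 24, 25 and 28. The groups overlapped, with 2 of 4 Ceacam1-/- values above all wild type values. With laser it ranged from 1684 to 2112 in wild type (median 1895) and from 1243 to 1888 in Ceacam1-/- mice (median 1699). Again the groups overlapped, with 3 of the 7 Ceacam1-/- libraries below all wild type libraries and the lowest in library 14. The log2 fold change between genotypes was 0.18 ± 0.16 without laser (SE, limma, adjusted p = 0.999) and -0.23 ± 0.10 with laser (SE, limma, adjusted p = 0.197; two-sided exact permutation p = 0.00638). Between genotypes with laser, 4479 of 19757 genes had an unadjusted p under 0.05 by limma, so such a difference was not particular to Ptpn11.

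With laser Ptpn11 changed by 0.15 ± 0.11 in wild type (SE, limma, adjusted p = 0.483) and by -0.26 ± 0.12 in Ceacam1-/- mice (SE, limma, adjusted p = 0.223; two-sided exact permutation p = 0.0424). The Ceacam1-/- value ranged from -0.30 to -0.19 over libraries left out and from -0.29 to -0.12 under the other alternatives. It passed under none of them. The interaction, -0.41 ± 0.17, had an unadjusted p of 0.0217 and an adjusted p of 0.640 (SE, limma). Without the libraries high in photoreceptor genes it was -0.25 (adjusted p = 0.866 by limma), and the difference between genotypes with laser was -0.12 (adjusted p = 0.795 by limma). That set leaves out Ceacam1-/- laser libraries 14, 15 and 18 and no wild type laser library, so these fits are a description. None of these differences passed the test over all genes.

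**Figure D4:**
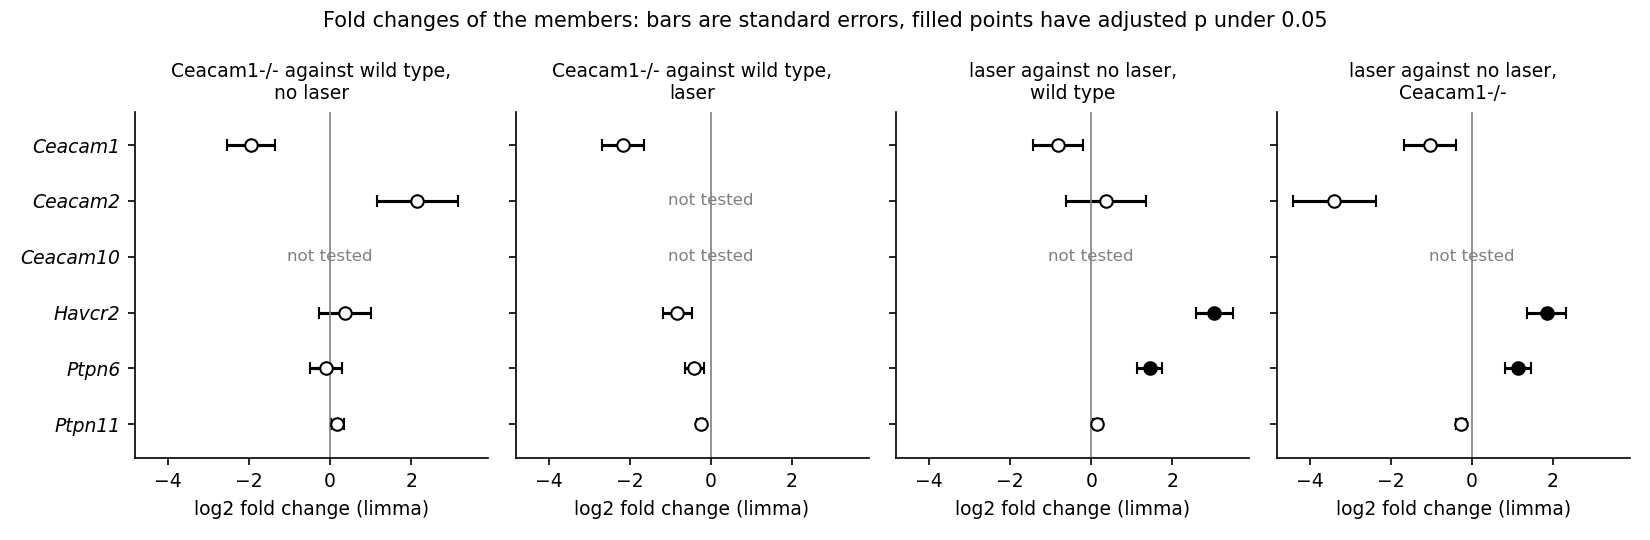
Points are log2 fold changes from limma on the x axis for each gene on the y axis, in the genotype comparisons (left panels) and the laser comparisons (right panels); bars are standard errors and filled points have an adjusted p under 0.05. Havcr2 and Ptpn6 are filled in both laser comparisons, and all points between genotypes are open.

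Other genes of the pathway were taken from lists. Between genotypes 0 genes of the 7 pathway lists passed, with or without laser (beside 0% and 0.0202% of genes tested). Among them, inhibitory receptors with ITIMs, which bind the same phosphatases, were higher with laser in part. In wild type 14 of the 19 tested were higher and 0 lower (median log2 fold change 1.85), and in Ceacam1-/- mice 8 were higher and 0 lower (median 1.39). Over all genes tested 4.23% and 2.07% were higher, with medians of -0.10 and 0.02, and many of these receptors are made by myeloid cells, whose marker genes are given above. The summed value of the list was 8503, 7447 and 6588 in Ceacam1-/- laser libraries 14, 15 and 18, against 16940 to 19680 in the other 4 with laser and 6147 to 7399 in the 4 without. Cd300lf, a receptor of myeloid cells for lipids, had 38.4 ± 13.7 normalized counts in wild type without laser (SD, n = 4) and 363 ± 103 with laser (SD, n = 9), a log2 fold change of 3.24 ± 0.31 (SE, limma, adjusted p = 1.05e-06). The rise in Ceacam1-/- mice was 2.18 ± 0.33 (SE, limma, adjusted p = 0.000526). Clec4a2, Lair1 and Pirb, further receptors of myeloid cells, rose by 2.46, 2.15 and 2.08 in wild type and by 1.97, 1.65 and 1.96 in Ceacam1-/- mice. Clec12a rose by 2.23 and 2.45. Sirpa, the receptor for CD47 and the most abundant of the list, rose by 0.92 and 0.76. Pecam1, the endothelial adhesion receptor with ITIMs, did not pass (0.27 in wild type and -0.04 in Ceacam1-/- mice).

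Of the Src and Syk family kinases, counted together with Csk, a kinase that restrains the Src family, 3 of 10 were higher in wild type after laser and 2 of 10 in Ceacam1-/- mice, beside 4.23% and 2.07% of all genes tested. Fgr rose from 10.2 ± 7.73 to 197 ± 59.1 normalized counts in wild type (SD, n = 4 and 9), a log2 fold change of 4.40 ± 0.43 (SE, limma, adjusted p = 1.05e-06). The rise in Ceacam1-/- mice was 3.21 ± 0.45 (SE, limma, adjusted p = 0.000273). Lyn rose by 1.05 in wild type and had a value of 0.48 in Ceacam1-/- mice, which did not pass. Fgr is a kinase of myeloid cells, and Lyn is found in myeloid and B cells. Fyn, the most abundant of the list and found in many tissues, did not pass in either genotype.

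Of 14 further non-receptor tyrosine phosphatases tested, 4 were higher and 1 lower in wild type after laser, and 1 was higher in Ceacam1-/- mice. Over all genes tested 5.28% and 3.72% passed in either direction. Ptpn18 rose by 1.44, Ptpn12 by 0.76 and Ptpn1, the phosphatase of the insulin receptor, by 0.63. Ptpn21 had a log2 fold change of -0.85. Ptpn2, which acts on JAK and STAT proteins, rose by 0.47 in wild type and by 0.79 in Ceacam1-/- mice, where it alone of the list passed. Among the 16 SHP-2 adaptors and Ras feedback genes (most abundant Grb2) there was no call in wild type and 1 in Ceacam1-/- mice, the insulin receptor substrate gene Irs2 (-0.73, adjusted p = 0.0272 by limma). Of the 10 partners of the CEACAM1 tail and of receptors it acts on, 0 passed in either genotype.

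**Figure D5:**
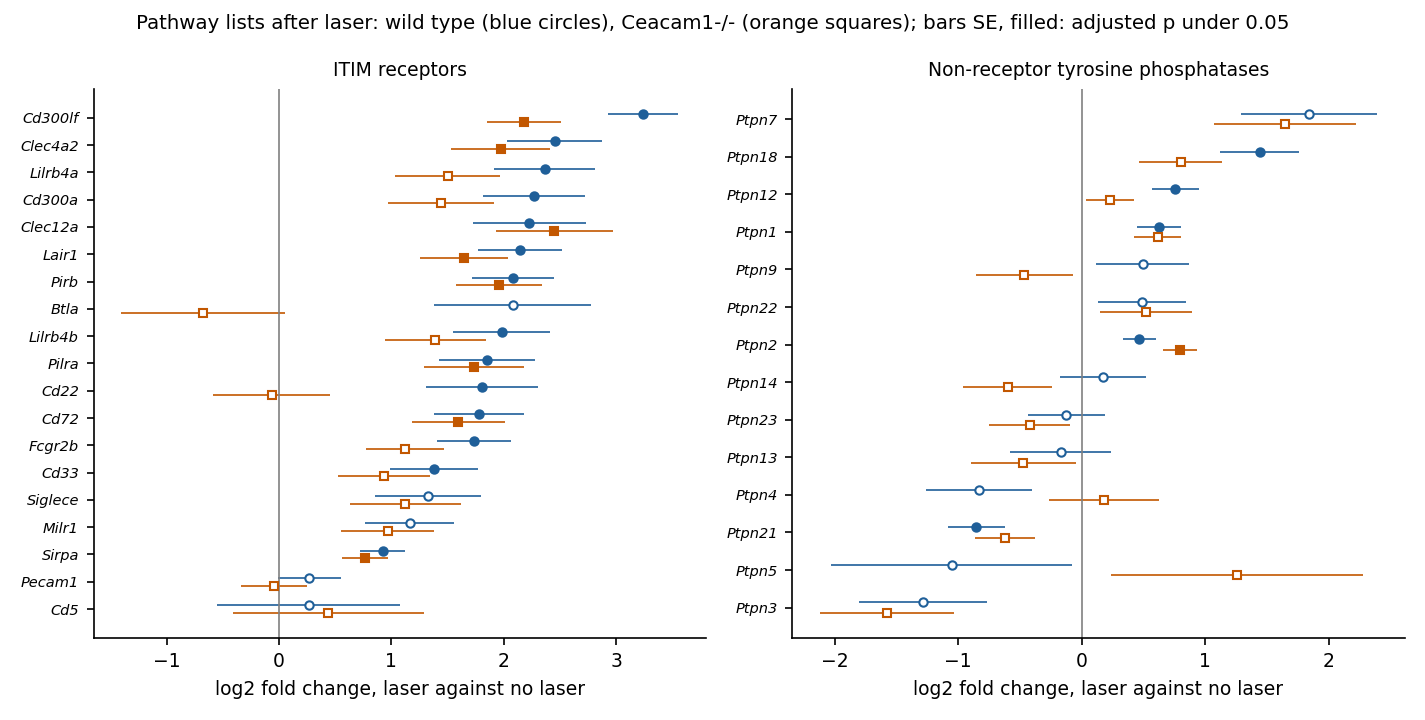
For each gene on the y axis, the log2 fold change of laser against no laser from limma on the x axis is drawn in wild type (blue circles) and Ceacam1-/- mice (orange squares); bars are standard errors and filled symbols have an adjusted p under 0.05. Of the ITIM receptors 14 and 8 of 19 passed, and of the further phosphatases 5 and 1 of 14.

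The list of other TIM genes, other ligands of TIM-3 and Bag6 had no gene that passed in any comparison, with 4 of its 6 genes tested. Lgals9, which encodes galectin-9, a ligand of TIM-3, had 932 ± 281 normalized counts in wild type without laser (SD, n = 4) and 1833 ± 291 with laser (SD, n = 9), a log2 fold change of 1.02 ± 0.37 (SE, limma, adjusted p = 0.108). Hmgb1, the most abundant of the list, had a log2 fold change of 0.61 ± 0.22 (SE, limma, adjusted p = 0.117). In Ceacam1-/- mice the values were 0.38 for Lgals9 (adjusted p = 0.602 by limma) and 0.44 for Hmgb1 (adjusted p = 0.293 by limma). Bag6 had a log2 fold change of -0.70 ± 0.22 in Ceacam1-/- mice (SE, limma, adjusted p = 0.0742) and -0.17 in wild type. Of the 26 other CEACAM and pregnancy-specific glycoprotein (PSG) genes, 9 were at 0 in all 24 libraries and 2 were abundant enough to test. Psg16 was above 0 in all 24 libraries, from 11.9 to 226 normalized counts. Its highest values, 226, 208 and 184, were in libraries 18, 14 and 21, all high in photoreceptor genes. Libraries 23 and 15, also high in these genes, had 142 and 97.8. Ceacam19 was above 0 in 15 of 24 libraries. Its highest values, 393 and 378, were in Ceacam1-/- libraries 28 and 15, both with surface epithelium sums over 100000. Neither passed in any comparison.

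The order of the levels differed between groups and, for Ceacam1, with the length used. Lengths are those of all annotated exons of a gene together, and values by the length of the canonical transcript alone follow at the end. Per kilobase of annotated exon in wild type without laser, Ceacam1 had 432 ± 315 normalized counts per kb (SD, n = 4), Ptpn11 223 ± 21.7 and Ptpn6 121 ± 39.4, followed by Havcr2 with 5.31 ± 4.50, Ceacam2 with 2.35 ± 2.17 and Ceacam10 with 0.211 ± 0.422. Ceacam1 was above Ptpn11 in 2 of these 4 libraries, so this order is not beyond the spread, whereas Ptpn11 was above Ptpn6 in 4 of 4. In wild type with laser Ptpn6 led with 324 ± 89.5 per kb (SD, n = 9) and was above Ptpn11 (247 ± 20.9) in 9 of 9 libraries. Ceacam1, with 274 ± 359 there, was above Ptpn6 in library 19 only. In Ceacam1-/- mice without laser Ptpn11 led with 252 ± 27.9 per kb (SD, n = 4), before Ptpn6 (118 ± 50.9) and Ceacam1 (94.7 ± 51.6), which was above Ptpn6 in 1 of 4 libraries. In Ceacam1-/- mice with laser Ptpn6 had 257 ± 106 per kb (SD, n = 7) and Ptpn11 211 ± 26.6, with Ptpn6 the higher in 5 of 7, while Ceacam1 (54.6 ± 39.8) was below both in 7 of 7. Havcr2 had 37.6 ± 7.53 and 25.3 ± 15.0 per kb with laser in wild type and Ceacam1-/- mice and was below Ptpn6 and Ptpn11 in all 24 libraries. By canonical length Ceacam1 had the highest mean in wild type with laser, 481 ± 632 per kb (SD, n = 9), before Ptpn6 (433 ± 120) and Ptpn11 (345 ± 29.2), though it was above Ptpn6 in library 19 only. Ptpn6 was then above Ptpn11 in 8 of 9 wild type and 4 of 7 Ceacam1-/- laser libraries. Ceacam1 was then above Ptpn11 in 3 of 4 wild type libraries without laser, and above Ptpn6 in 2 of 4 Ceacam1-/- libraries without laser and in 1 of 7 with laser.

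The genes most like each member were sought among 19949 genes by Pearson's r of log2 values centred on the group means, as a description across libraries that share their tissue makeup. For Ceacam1, over the 13 wild type libraries, they were Mir205hg (r = 0.972), the host transcript of an epithelial microRNA, the receptor tyrosine kinase gene Epha1 (0.964) and Aadac (0.960). Without library 19 these values were 0.970, 0.912 and 0.948. For Havcr2, over 24 libraries, they were Mpeg1 (0.904), which encodes a pore-forming protein of macrophages, Amz1 (0.888) and Igsf6 (0.867). For Ptpn6 they were the ITIM receptor gene Lilrb4b (0.957), Lst1 (0.950) and P4hb (0.944). For Ptpn11 they were the pseudogene Rps23-ps1 (0.806), Tst (0.802) and Hmox2 (0.801), and for Ceacam2 Ifit1bl2 (0.790), Ttc9 (0.744) and Akirin1 (0.722).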

How the data were processed

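Choroidal RNA was sequenced from SMART-Seq libraries. The authors checked reads with FastQC, pseudo-aligned them to GRCm39 with Salmon 1.10.3 and normalized them with DESeq2 1.44.0. The authors deposited signal values, normalized counts for 56065 genes, with no raw counts. In each library 34.1% to 76.1% of the low values came within 5% of whole reads, too few to recover reads, and no count model was run. Positions, lengths and sequences came from the GENCODE annotation vM39 and genome of GRCm39, which matched 99.1% of identifiers. The RefSeq promoter tables were not used here.

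The study removed 1 outlier library that it does not name. Its groups after that step had 4 libraries each, as many as the groups without laser here, and all 24 libraries were used. Groups came from the labels. log2(value + 1) was fitted with limma 3.58.1 (variance trend) in R 4.3.3, for genes with a mean of at least 10, with Benjamini-Hochberg adjustment over all of them. The genotype contrasts used the 8 libraries without and the 16 with laser separately, and laser and the interaction were fitted over all 24. Sex, a covariate of the study, is not in the labels. Single genes were also compared by exact permutation in Python 3.11.15 with scipy 1.17.1. The genes and lists were chosen with earlier results of these data known. Genes of the lists were named where they passed, at most 4 per list and comparison by lowest p, with the most abundant gene of most lists and the 3 genes most like each member. Sirpa, Pecam1, Fyn, Grb2, Lgals9, Hmgb1, Bag6, Psg16 and Ceacam19 were named after their values were seen, and some genes of the lists are not reported here. The method was run on simulated data for the genotype contrasts only, with noise drawn independently for each gene. That simulation held no shared differences in tissue makeup between libraries and did not cover the laser or interaction fits. It therefore does not check the calls given here. Alternatives were other pseudocounts, filters, scalings, variance models, library sets and covariates, and leaving out each library in turn.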

Additional observations from a re-analysis of the deposited data

Results flagged for a closer look

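In 24 sets of values, 6 genes in 4 groups, 5 had a library farther from the others than expected at a level that chance reaches in about 1 in 20 groups. Ceacam1 was at 1171 normalized counts in Ceacam1-/- library 28 without laser and at 8367 in wild type laser library 19. Both libraries had summed surface epithelium values over 100000, and without library 28 or 19 the differences between genotypes kept their direction. Havcr2 was at 58.6 in wild type library 26 without laser, the library with the highest myeloid sum of its group (14550). Ptpn6 was at 1597 in wild type laser library 1, which had the highest myeloid sum of all libraries (58530). Ceacam10 was at 1.29 in wild type library 27, the only value above 0 in its group. No test of these libraries beyond leaving them out was made.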

How the results depend on the processing

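No paired analysis was possible because the library numbers are unique and no number is shared between groups. Values below are log2 fold changes from limma unless they count genes, and the cause of a change was not tested. Covariates and library sets built on surface epithelium or photoreceptor genes were chosen after seeing the data.

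Counts of genes past the threshold moved the most. Between genotypes without laser 1 gene passed with upper-quartile scaling, no variance trend or array weights, against 0, and leaving out 1 library gave 0 to 1. Between genotypes with laser 297 passed with array weights, 9 with all 24 libraries in the fit, 2 with a mean of at least 50 and 2 without the libraries high in photoreceptor genes, against 4. Leaving out 1 library gave 4 to 61 (61 without library 19, 25 without 17, 7 without 4). With laser in wild type 6505 passed with array weights, 2274 with only the wild type libraries, 491 without the libraries high in surface epithelium genes and 1645 without those high in photoreceptor genes, against 1053. Leaving out 1 library gave 479 to 1162 (479 without library 21, 554 without 27). With laser in Ceacam1-/- mice 3551 passed with array weights, 437 with no filter, 38 with only these libraries and 2923 without those high in photoreceptor genes, against 742. Leaving out 1 library gave 148 to 2488 (2488 without library 23, 466 without 5, 255 without 24, 148 without 25). The interaction had 0 calls under every alternative run.

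Ceacam1 passed with array weights between genotypes with laser (-1.70) and with laser in wild type (-1.54). Ceacam2 passed with laser in Ceacam1-/- mice with a pseudocount of 10 (-1.51), with the photoreceptor covariate (-4.01) and without library 15, in a range of -3.93 to -2.92 over libraries left out. Havcr2 with laser in Ceacam1-/- mice did not pass with no filter (1.85), quantile normalization (1.81) or only these libraries (1.85), and ranged from 1.55 to 2.18 over libraries left out. Ptpn6 there did not pass with no filter, no trend or only these libraries (1.14 each), quantile normalization (1.12), the Y-linked covariate (1.14) or the epithelium covariate (1.08), and ranged from 0.80 to 1.37. Ptpn6 with laser in wild type did not pass without the libraries high in epithelium genes (1.45).

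Changes of sign concerned values that did not pass. Between genotypes without laser Havcr2 was -0.34 without the libraries high in epithelium genes, and Ptpn6 was 0.0019 with array weights, 0.060 without those high in photoreceptor genes and -0.34 to 0.23 over libraries left out. Between genotypes with laser Ptpn6 was 0.028 with array weights and 0.069 without the libraries high in photoreceptor genes. With laser in wild type Ceacam2 was -0.53 to 0.93 over libraries left out. The interaction of Ceacam1 was 0.91 with array weights, 0.21 with the epithelium covariate, 0.39 without the libraries high in photoreceptor genes and -0.59 to 0.20 over libraries left out. The interaction of Ptpn6 was 0.036 with array weights, 0.33 with the photoreceptor covariate, 0.021 without the libraries high in epithelium genes and 0.0094 without those high in photoreceptor genes.

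With 4 libraries per group without laser the smallest exact p is 0.0286, and values of Ceacam2 and Ceacam10 rest on few reads. Ceacam2 was under the filter in the laser comparisons without the libraries high in epithelium genes. The depth in reads is not known, so no counting interval was given.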
